A study of Triticum turgidum subsp. durum with 8 samples.

Results

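The comparison described here sets the durum wheat variety DBA Aurora against the breeding line L6 in seedlings grown without nitrogen (N). It uses 4 small RNA libraries: AuCG_N and L6CG_N from control (CG) parents, and AuWH_N and L6WH_N from parents exposed to water-deficit and heat (WH). Each distinct miRNA sequence was counted once, and a sequence was taken in when its mean normalized count over these 4 libraries was 10 or more, which 568 of the 1473 sequences in the table were (38.6%). The last sequence taken in was tae-miR9654a-3p at a mean of 10.02, and the first left out was tae-MIR9668-p3_2ss10TA23AG at 9.97. The 568 sequences fall into 102 families and 512 distinct sets of values, since some sequences carry the same values in all 8 libraries. The reason for this is not stated. Of the 568, 62 belong to group 5, named PC, which are reads that match no known miRNA and were assigned a predicted hairpin. The 568 held 99.8 to 99.9% of the miRNA counts of each N-starved library.

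DBA Aurora is the genotype that tolerates water-deficit and heat and L6 the one that is sensitive to them, and RNA came from shoots of seedlings at 3 weeks. In the other 4 libraries of the study (AuCG_C, AuWH_C, L6CG_C and L6WH_C) seedlings of the same seed groups received complete nutrients. Every library was made from RNA pooled from 6 plants and is the only one of its condition, so each genotype has 2 N-starved libraries that differ in parental treatment. The 2 genotypes are 1 line each. The p-values rest on the spread between pools left after a common parental difference is removed, and not on spread between independent lines. That spread is taken over all 8 libraries and is partly shared across sequences. An exact permutation test of 2 libraries against 2 cannot give a two-sided p below 0.333, so tests between genotypes rest on the limma fit across all sequences described below.

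miRNAs are short RNAs cut from hairpin precursors. They guide Argonaute proteins to matching transcripts, which in plants are mostly sliced. Conserved families each hold to a small set of targets, many of them transcription factors of development, hormone and nutrient responses, whereas young lineage-specific miRNAs come and go between closely related genomes. In N-starved plants the families that act on nutrient uptake, auxin signalling and copper proteins are among those best known to respond. A miRNA can occur as several isomiRs, which here carry names such as R+2 (2 more bases at the 3′ end than the database entry), L-1 (1 base fewer at the 5′ end) or 1ss14GA (1 substitution, at base 14).

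Of the sequences below, 11 passed the test between genotypes under N starvation and carry the clearest difference. Bases 2 to 8, the seed, are in capitals. No 2 of the 11 share a seed.

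PC-5p-627_5996: tTTGCGCAgaagggagaaatc
PC-3p-6569_544: tTTCTCTCctctttgtgaaga
PC-3p-7748_468: cGATTGGTgctcgtcggtgac
tae-miR6201: tGACCCTGaggcactcataccg
PC-5p-30368_143: cTTCTGATttactcgtcgtgg
tae-MIR1122c-p3_1ss10GA_1: aTATTATGgaacggagggagt
tae-MIR1122c-p3_1ss10GA_2: tTATGGGAcagagggagtagta
tae-miR9661-5p_1ss14GA: tGAAGTAGagcagagacctca
tae-MIR1137b-p3_1ss12TC: cAAAGTTGggtcatctatttt
PC-5p-70520_66: aACTTGGTagcaaagctgaca
PC-3p-76927_60: aAAGATGTtcgatagaaagtg

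The first 2 of these lie on the same predicted hairpin of 84 bases on the plus strand of the Svevo.v1 durum wheat genome, at 686359405 to 686359488 of 1 chromosome sequence. It is shown because both of its arms were present in L6 and listed at 0 in DBA Aurora, and capitals mark the 2 mature arms.

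Hairpin of PC-5p-627_5996 and PC-3p-6569_544: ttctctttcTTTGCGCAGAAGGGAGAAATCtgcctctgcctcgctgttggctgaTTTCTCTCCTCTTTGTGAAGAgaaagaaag

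A further set is shown for its 3′ ends. These are extended forms of conserved miRNAs that ended in CCA and were highest in AuCG_N, with capitals marking the bases added after the end of the matching shorter sequence.

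bdi-miR156b-5p_R+4: tgacagaagagagtgagcacACCA
gma-miR156a_L+1R+2: ttgacagaagagagtgagcacCA
bdi-miR167c-5p_R+3: tgaagctgccagcatgatctgaCCA
gma-miR164a_R+3: tggagaagcagggcacgtgcaCCA
osa-miR171b_R+4: tgattgagccgtgccaatatcACCA
mes-miR394a_R+2: ttggcattctgtccacctccCA

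Abundant miRNAs that were called the same way in both library pairs are shown last, again with the seed in capitals.

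ata-miR1432-5p_L+1R-1: aTCAGGAGagatgacaccgac
ata-MIR396d-p3: aAGCCCATggaaaccatgccc
tae-MIR9664-p5: aCGGCATAgaggcactgcaaa

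The values are normalized read counts that the authors' program made, and the value of 1 read was estimated as 1.57 in AuCG_N, 1.02 in AuWH_N, 0.975 in L6CG_N and 0.649 in L6WH_N. The estimated miRNA reads were 0.992 M in AuCG_N, 1.32 M in AuWH_N, 1.37 M in L6CG_N and 2.31 M in L6WH_N. The table lists almost nothing from fewer than 5 reads, a floor worth 7.84 in AuCG_N and 3.25 in L6WH_N, so a value listed at 0 can stand for a few reads. Of the 568 sequences, 32 were listed at 0 in AuCG_N, 15 in AuWH_N, 24 in L6CG_N and 5 in L6WH_N, and 506 were above 0 in all 4. Both DBA Aurora libraries had fewer estimated reads than both L6 libraries, so depth ran with genotype. The floor was 7.84 and 5.09 in DBA Aurora and 4.88 and 3.25 in L6. In both DBA Aurora libraries 9 sequences were listed at 0, and in both L6 libraries 4 were. The part of depth in the results was not tested. All values are from bulk shoots, where fewer cells of a type and less RNA per cell cannot be told apart.

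Most of the miRNA pool was alike in the 2 genotypes. osa-miR396e-5p, whose targets are the growth-regulating factors (GRF), was the most abundant sequence in all 4 libraries, with 359438 in AuCG_N, 350010 in AuWH_N, 251725 in L6CG_N and 391698 in L6WH_N. The ranges of the genotypes overlapped. The 5 most abundant families were miR396, miR168, miR7757, miR9674 and miR167, which held 27.3, 15.7, 10.8, 8.98 and 4.93% of the counts on average, and none of them passed the test between genotypes. Over all 568 sequences the median difference (DBA Aurora minus L6, log2 of the normalized count plus 1) was −0.03 and the median standard error was 0.49. Scaling each library to its filtered reads moved that median to −0.25, so small differences are read below relative to the scaling used.

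A limma fit over all 8 libraries tested the genotype difference under N starvation, with a term for parental treatment and 3 residual degrees of freedom. It called 11 of 568 sequences (1.94%) at a Benjamini-Hochberg adjusted p under 0.05. Of these, 9 were lower in DBA Aurora (1.58%) and 2 higher (0.352%), and 57 sequences had an unadjusted p under 0.05. Of the 11, 6 belong to group 5, as do 62 of the 568 (10.9%). By length 9 are 21 nt long, as are 279 of the 568, and 2 are 22 nt long. In 10 of the 11 the sequence was listed at 0 in both N-starved libraries of 1 genotype, so those 10 passed the abundance filter through the other genotype alone. Their log2 values depend on the 1 added to each count and are not bounds on a fold. Their p-values describe that listing and are not support independent of the filter. Among the 486 sequences with a mean of 10 or more in both genotypes, limma called 1. Across 7 of the 568 sequences the count was 0 in all 4 DBA Aurora libraries and above 0 in all 4 of L6, and across 2 the reverse held.

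**Figure D1:**
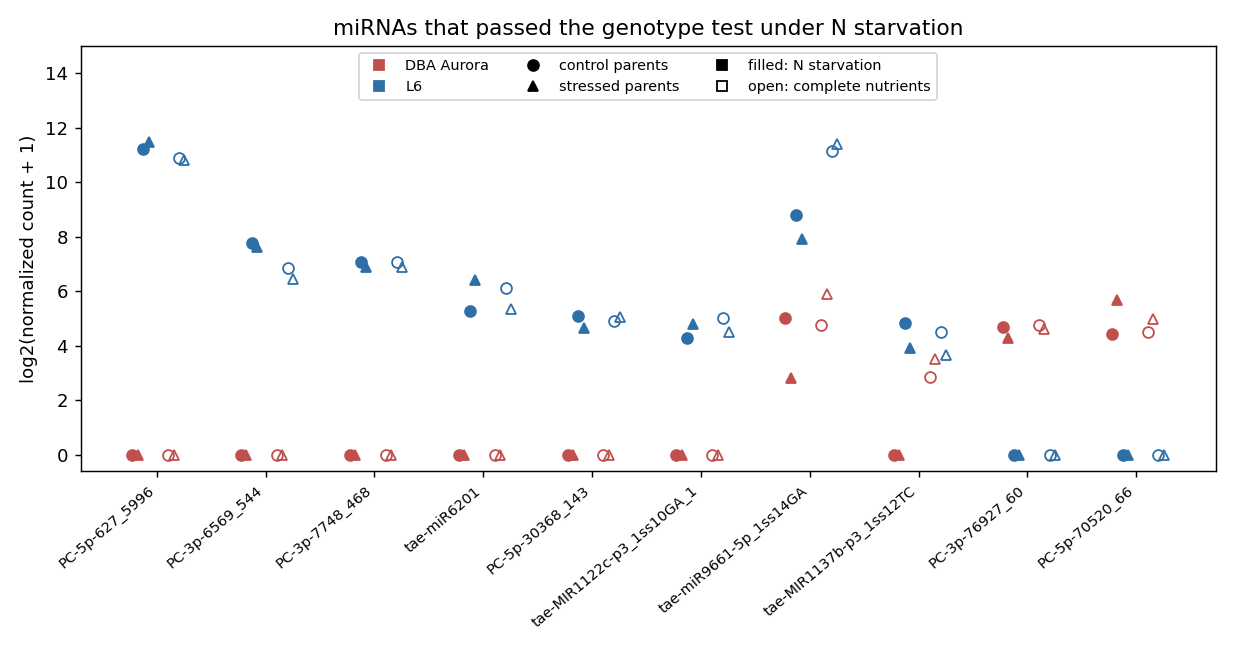
Each column is a sequence that passed the genotype test under N starvation (the 2 tae-MIR1122c-p3_1ss10GA sequences share all values and are drawn once), and the vertical axis is log2 of the normalized count plus 1 in each of the 8 libraries. DBA Aurora is red and L6 blue, circles are control and triangles stressed parents, filled symbols N starvation and open symbols complete nutrients. PC-5p-627_5996 stood at 2402 and 2821 in N-starved L6 and at 0 in all 4 DBA Aurora libraries.

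The largest difference was that of the hairpin shown above. PC-5p-627_5996 was listed at 0 in AuCG_N and AuWH_N and stood at 2402 in L6CG_N and 2821 in L6WH_N (log2 −11.35, standard error 0.35, limma with Benjamini-Hochberg adjusted p = 1.75e-05). PC-3p-6569_544, its opposite arm, was listed at 0 in both DBA Aurora libraries and stood at 216 in L6CG_N and 197 in L6WH_N (log2 −7.70, limma adjusted p = 0.00106). The 5p arm exceeded the 3p arm 11.1-fold in L6CG_N and 14.3-fold in L6WH_N, and 16.5-fold and 21.1-fold in L6CG_C and L6WH_C. Both arms were therefore read in every L6 library, and neither was listed in any DBA Aurora library.

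PC-3p-7748_468, another miRNA of group 5, was also listed at 0 in AuCG_N and AuWH_N, and stood at 135 in L6CG_N and 117 in L6WH_N (log2 −6.98, limma adjusted p = 0.00139). Its predicted hairpin lies elsewhere in Svevo.v1, at 457085444 to 457085536 of its chromosome sequence. These 3 sequences were called in all 18 settings tried. The other 8 were called in 5 to 10 of the 16 to 18 settings in which they could be tested.

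tae-miR6201, a wheat miRNA whose targets are not named here, was listed at 0 in AuCG_N and AuWH_N and stood at 38.0 in L6CG_N and 83.1 in L6WH_N (log2 −5.84, limma adjusted p = 0.0203). Its hairpin, at 687617291 to 687617436, starts 1.26 Mb from that of PC-5p-627_5996 on the same chromosome sequence. Within 5 Mb of that hairpin these 3 were the only sequences of the 568. All 3 were listed at 0 in every DBA Aurora library.

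The remaining miRNAs that were lower in DBA Aurora were rarer. PC-5p-30368_143 was listed at 0 in both DBA Aurora libraries and stood at 33.2 in L6CG_N and 24.0 in L6WH_N. tae-MIR1122c-p3_1ss10GA_1 and _2, of a family linked to short inverted-repeat transposons (MITEs), were listed at 0 in DBA Aurora and stood at 18.5 in L6CG_N and 26.6 in L6WH_N. tae-MIR1137b-p3_1ss12TC, also MITE-like, was listed at 0 in DBA Aurora and stood at 27.3 in L6CG_N and 14.3 in L6WH_N. For these 4 sequences the limma adjusted p was 0.0407 to 0.0430.

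tae-miR9661-5p_1ss14GA was the only called sequence that was listed above 0 in both genotypes under N starvation. It stood at 31.4 in AuCG_N, 6.11 in AuWH_N, 443.6 in L6CG_N and 241 in L6WH_N (log2 −4.43, standard error 0.76, limma adjusted p = 0.04996, just under the threshold). The DBA Aurora libraries were both below the L6 libraries by a wide gap. The read differs from the Svevo.v1 hairpin (607648117 to 607648193) by G14A, counted from the 5′ end of the miRNA with the base of the hairpin first. With complete nutrients it stood at 26.0 in AuCG_C and 59.2 in AuWH_C against 2273 in L6CG_C and 2676 in L6WH_C.

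Both miRNAs that were higher in DBA Aurora belong to group 5. PC-5p-70520_66 stood at 20.4 in AuCG_N and 49.9 in AuWH_N and was listed at 0 in L6CG_N and L6WH_N (log2 5.04, limma adjusted p = 0.0412). PC-3p-76927_60 stood at 25.1 in AuCG_N and 18.3 in AuWH_N and was listed at 0 in both L6 libraries (log2 4.49, limma adjusted p = 0.0430). Both were also listed at 0 in L6CG_C and L6WH_C.

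A few miRNAs had similar patterns without passing. tae-miR9655-3p, a wheat miRNA, stood at 18.8 in AuCG_N and 22.4 in AuWH_N and was listed at 0 in L6CG_N and L6WH_N (log2 4.43, limma adjusted p = 0.0702). hvu-miR5049f_L+1R+2_2ss14TC20GA stood at 25.1 and 49.9 in DBA Aurora and was listed at 0 in L6 (log2 5.19, limma adjusted p = 0.106). ata-MIR396d-p3, the opposite strand of a miR396 precursor, stood at 251 in AuCG_N, 129 in AuWH_N, 689 in L6CG_N and 1081 in L6WH_N (log2 −2.25, limma adjusted p = 0.0702). In all 3 the 2 genotypes did not overlap under N starvation.

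The number of calls rested on single libraries. Without L6CG_N limma called 3 sequences, without AuWH_N 4 and without AuCG_N 5. Without L6WH_N it called 12, of which only 3 were among the 11. The 9 others then included bdi-miR156b-5p_R+4 (log2 9.38), zma-miR167e-5p_R+2 (7.50), gma-miR156a_L+1R+2 (5.94) and sly-miR169a_R+4 (5.31), all higher in DBA Aurora. Among the 246 sequences (43.3%) whose genotypes did not overlap, 121 were higher (21.3%) and 125 lower (22%) in DBA Aurora, of which limma called the few described above.

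The same fit over all 8 libraries also tested the genotype difference with complete nutrients. Both tests share the parental term and the residual variance of each sequence, so calls made in both are not independent of each other. With complete nutrients limma called 11 sequences (1.94%), and 10 of the 11 sequences called under N starvation were among them. The exception was tae-MIR1137b-p3_1ss12TC, which with complete nutrients stood at 6.26 in AuCG_C and 10.5 in AuWH_C against 21.6 in L6CG_C and 11.5 in L6WH_C. The test of the difference between N starvation and complete nutrients called 0 of 568 sequences (0%) by limma, with 20 at an unadjusted p under 0.05.

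**Figure D2:**
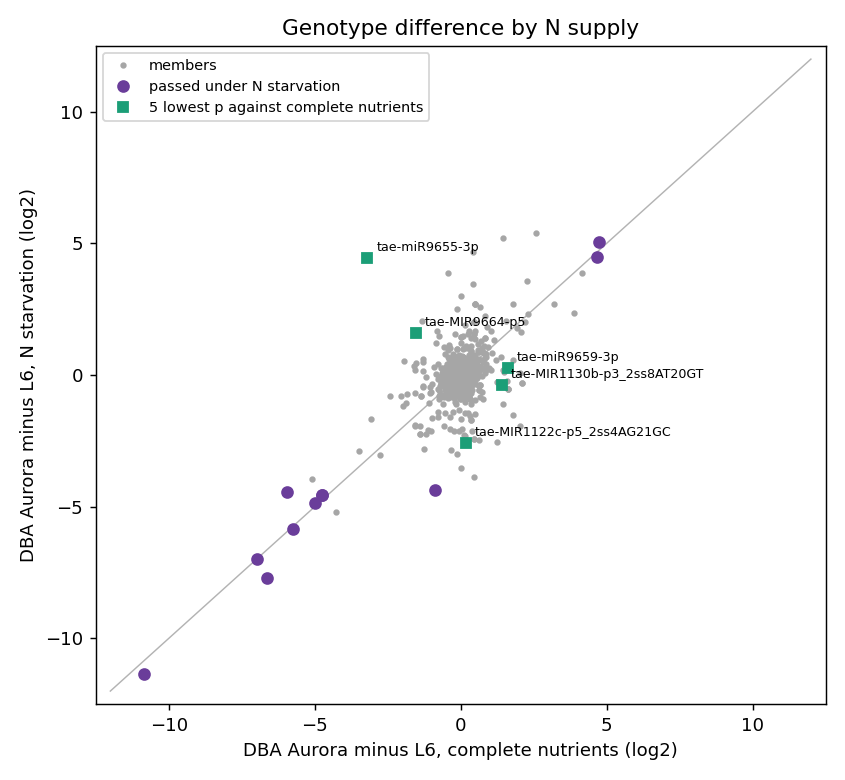
Each point is 1 of the 568 sequences, with the fitted genotype difference (DBA Aurora minus L6, log2 of the normalized count plus 1) with complete nutrients on the horizontal axis and under N starvation on the vertical axis. Purple points passed under N starvation, green squares have the 5 lowest p for the difference between the axes, and the line marks equal values. Most purple points lie near the line, and tae-miR9655-3p lies at −3.20 and 4.43, the first from low values near the floor of 5 reads.

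The 5 sequences of lowest p in that test are given as values, since none passed. tae-miR9655-3p, given above under N starvation, was listed at 0 in AuCG_C and AuWH_C and stood at 5.39 in L6CG_C and 12.2 in L6WH_C. As listed, the direction was opposite with complete nutrients (log2 7.63 between the 2 contrasts, limma adjusted p = 0.340). The 5.39 is the floor of 5 reads in L6CG_C, and the floor of AuWH_C was higher, at 6.57. Only the value in L6WH_C lies clear of its floor (3.59), so the opposite direction rests on low values. tae-MIR9664-p5, the 5p strand of a wheat hairpin, stood at 1110 in AuCG_N, 1239 in AuWH_N, 305 in L6CG_N and 496 in L6WH_N, and at 96.6, 379, 432 and 723 in the matching libraries with complete nutrients (log2 3.13, limma adjusted p = 0.676). The opposite strand, tae-miR9664-3p_L-1, stood at 2593 in AuCG_N, 3445 in AuWH_N, 2481 in L6CG_N and 2216 in L6WH_N, a smaller gap. tae-MIR1122c-p5_2ss4AG21GC stood at 7.84 in AuCG_N, 5.09 in AuWH_N, 46.8 in L6CG_N and 39.6 in L6WH_N, and between 17.0 and 26.3 with complete nutrients. tae-miR9659-3p stood at 1188 in AuCG_N, 1200 in AuWH_N, 840 in L6CG_N and 1157 in L6WH_N, and with complete nutrients at 1868 and 2685 in DBA Aurora and 639 and 828 in L6, a wider gap in the same direction. For tae-MIR1130b-p3_2ss8AT20GT the N-starved libraries stood at 28.5 to 44.9, and with complete nutrients DBA Aurora stood at 165.6 and 121 and L6 at 64.7 and 42.4.

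Counts of each family were also summed and fitted in the same way. Of 104 families, 2 were lower in DBA Aurora under N starvation (1.92%) and 0 higher (0%), with 8 at an unadjusted p under 0.05 in either direction. miR6201 (1 sequence) gave log2 −5.84 (limma adjusted p = 5.33e-06) and miR9661 gave log2 −4.49 (limma adjusted p = 0.000543), from totals of 31.4 and 6.11 in DBA Aurora and 462 and 249 in L6. Without L6CG_N the miR9661 call was lost (log2 −4.17, limma adjusted p = 0.0680). By other settings a family was higher. When log2 values of members were averaged in place of summing counts, a setting chosen after seeing the data, miR9655 was called as well (log2 2.70, limma adjusted p = 0.00949). In the 4 N-starved libraries alone miR1432 was called (log2 1.55, limma adjusted p = 0.00763 with pairing and 0.00427 without). Without L6WH_N 5 families were called, adding miR164 (log2 1.34), miR9777 (2.78) and miR9863 (−0.98). The list that holds miR6201 and miR9661 was chosen on these libraries, so its counts are not independent evidence.

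Of the 5 most abundant families miR168, which targets the miRNA effector AGO1, had the lowest p. Its total was 194564 in AuCG_N and 182317 in AuWH_N against 247083 in L6CG_N and 271657 in L6WH_N. The genotypes did not overlap, but the difference did not pass (log2 −0.46, standard error 0.20, limma adjusted p = 0.550). It came from the 3p strand: osa-miR168a-3p_L-3 stood at 94013 and 76327 in DBA Aurora and 161209 and 131126 in L6, while for osa-miR168a-5p the genotypes overlapped, with 100551 and 105990 against 85874 and 140531. No family passed the test against complete nutrients (0%), with 5 at an unadjusted p under 0.05.

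The 2 library pairs were then compared by the thresholds of the study, a Fisher's exact p under 0.05 (rounded value of the sequence and of all others, by library) and an absolute log2 ratio over 1, called the rule of the study here. The study also names a chi-square test, which was left out of the rule and, used in place of Fisher's test, gave 225 calls from control parents, 54 from stressed parents and 33 in both. The rule compares libraries, not conditions. Between AuCG_N and L6CG_N it called 227 sequences (40%), with 106 higher (18.7%) and 121 lower (21.3%) in AuCG_N. Between AuWH_N and L6WH_N it called 57 (10%), with 23 higher (4.05%) and 34 lower (5.99%) in AuWH_N. The median absolute log2 difference was 0.79 in the pair from control parents and 0.35 in the pair from stressed parents. The genotypes thus stood further apart in progeny of control parents, 3.98 times as many sequences being called there.

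The gap was also present among abundant sequences. Among sequences at 100 or more in at least 1 library of the pair, 86 of 244 were called from control parents (35.2%) and 17 of 232 from stressed parents (7.33%). Of the 227 calls, 54 had a 0 in 1 library, as had 19 of the 57. With complete nutrients the order was the other way round, with 112 calls (19.7%) between AuCG_C and L6CG_C and 155 (27.3%) between AuWH_C and L6WH_C. Each of these pairs is 1 library against 1 library, so parental treatment and the library itself cannot be told apart.

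**Figure D3:**
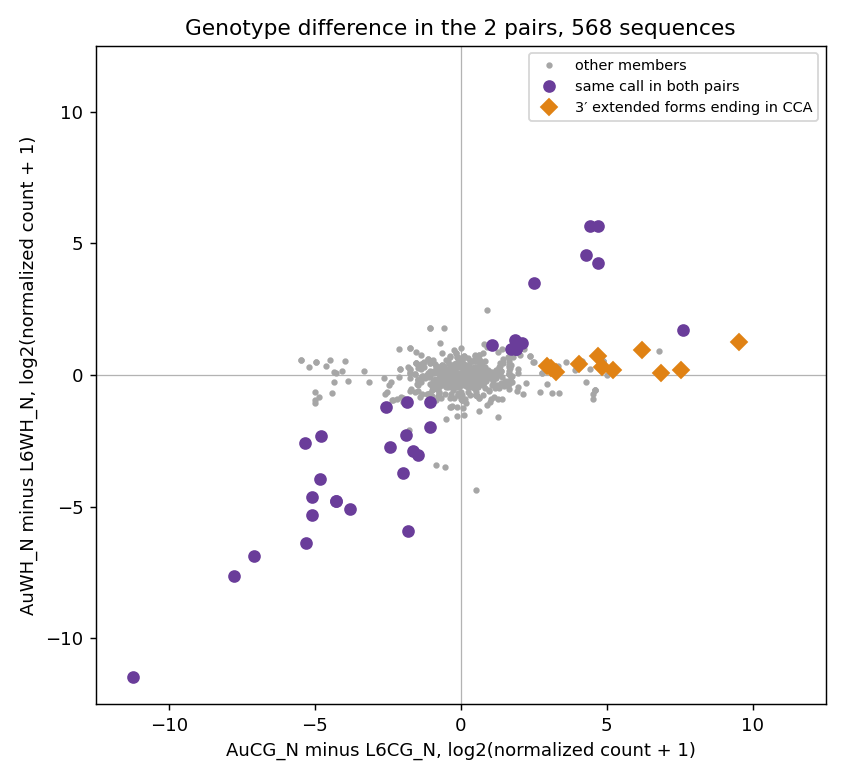
Each point is 1 of the 568 sequences, with the difference between AuCG_N and L6CG_N on the horizontal axis and that between AuWH_N and L6WH_N on the vertical axis (log2 of the normalized count plus 1). Purple points were called the same way in both pairs and orange diamonds are the 11 extended forms that end in CCA. The cloud is wider along the horizontal axis, and the orange diamonds lie at 2.95 to 9.55 there and at 0.09 to 1.24 on the vertical axis.

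In both pairs 35 sequences were called the same way (6.16%), with 13 higher (2.29%) and 22 lower (3.87%) in DBA Aurora. They were 15.4% of the calls from control parents and 61.4% of those from stressed parents. All 22 that were lower were 20 to 22 nt long, against 65.7% of the 568. Of the 35, 11 reached 100 or more in at least 1 of the 4 libraries, with 5 higher and 6 lower.

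The most abundant of the 5 that were higher belongs to miR1432, a grass family with predicted targets among EF-hand calcium-binding proteins. ata-miR1432-5p_L+1R-1 stood at 7360 in AuCG_N, 10338 in AuWH_N, 1712 in L6CG_N and 4455 in L6WH_N. osa-miR1432-5p_L-1R+1, which starts 1 base later and so carries a shifted seed, stood at 622 in AuCG_N, 900 in AuWH_N, 187 in L6CG_N and 448 in L6WH_N. All 4 members of the family had higher values in both DBA Aurora libraries than in both L6 libraries, as had 21.3% of all sequences. Their median log2 differences were 1.92 from control and 1.09 from stressed parents. By the rule 3 of the 4 were called higher in each pair, against 18.7 and 4.05% over all sequences. The members include overlapping forms of the same miRNA, so they are not separate observations. limma called none of them (adjusted p = 0.663 for the most abundant), and with complete nutrients the genotypes overlapped: ata-miR1432-5p_L+1R-1 stood at 962 in AuCG_C, 8109 in AuWH_C, 7417 in L6CG_C and 706 in L6WH_C.

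The other abundant sequences called higher in both pairs were tae-MIR9664-p5, given above, and extended forms of 2 conserved families. bdi-miR156b-5p_R+4, of the family that targets SPL factors and sets juvenile growth, stood at 746 in AuCG_N, 205 in AuWH_N, 0 in L6CG_N and 86.4 in L6WH_N. zma-miR167e-5p_R+2, of the family that targets auxin response factors, stood at 196 in AuCG_N, 94.7 in AuWH_N, 0 in L6CG_N and 28.6 in L6WH_N. In both the genotypes did not overlap.

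Of the 6 abundant sequences called lower in both pairs, 5 are described above. The sixth is osa-miR398a_L+1R-1, of the family that targets copper/zinc superoxide dismutases, which stood at 75.2 in AuCG_N, 30.6 in AuWH_N, 158.9 in L6CG_N and 124 in L6WH_N. With complete nutrients DBA Aurora was above L6, with 161.98 and 489 against 94.8 and 67.5 (log2 −3.33 between the 2 contrasts, limma adjusted p = 0.744).

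Extended forms of conserved miRNAs set AuCG_N apart. Among the 568 sequences, 11 carry at least 2 added 3′ bases and end in CCA, from 8 families. These 11 were picked after their values had been seen, so their counts are a description. AuCG_N was the highest of the 4 N-starved libraries for all 11, and L6CG_N the lowest for 10. Summed, they stood at 5849 in AuCG_N, 1249 in AuWH_N, 214 in L6CG_N and 838 in L6WH_N. In the libraries with complete nutrients the sums were 873 in AuCG_C, 486 in AuWH_C, 298 in L6CG_C and 122 in L6WH_C.

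The matching sequences without the extension went both ways. For 10 of the 11 extended forms such a sequence was listed (8 distinct sequences), and the extended form came to a median of 7.82% of it in AuCG_N, 3.42% in AuWH_N, 0.109% in L6CG_N and 1.96% in L6WH_N. The median log2 difference of those shorter sequences was −0.10 from control and −0.26 from stressed parents, against 4.84 and 0.30 for the extended forms. Of the 8 shorter sequences 3 were higher in AuCG_N than in L6CG_N and 5 were lower. The 3 are bdi-miR156b-5p, ata-miR167b-5p (58781 against 18512) and ata-miR164b-5p (26318 against 10159), which match 5 of the 10 extended forms. By the rule of the study all 11 were called higher from control parents and 1 from stressed parents. limma called 0 of the 11, with 5 at an unadjusted p under 0.05. Of all 17 sequences that end in CCA, whatever their name, 13 were called higher from control and 1 from stressed parents, and none lower. Over all sequences 18.7 and 4.05% were higher. The 17 include the 11 picked forms, all of them called higher from control parents, so this count is not a separate check.

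**Figure D4:**
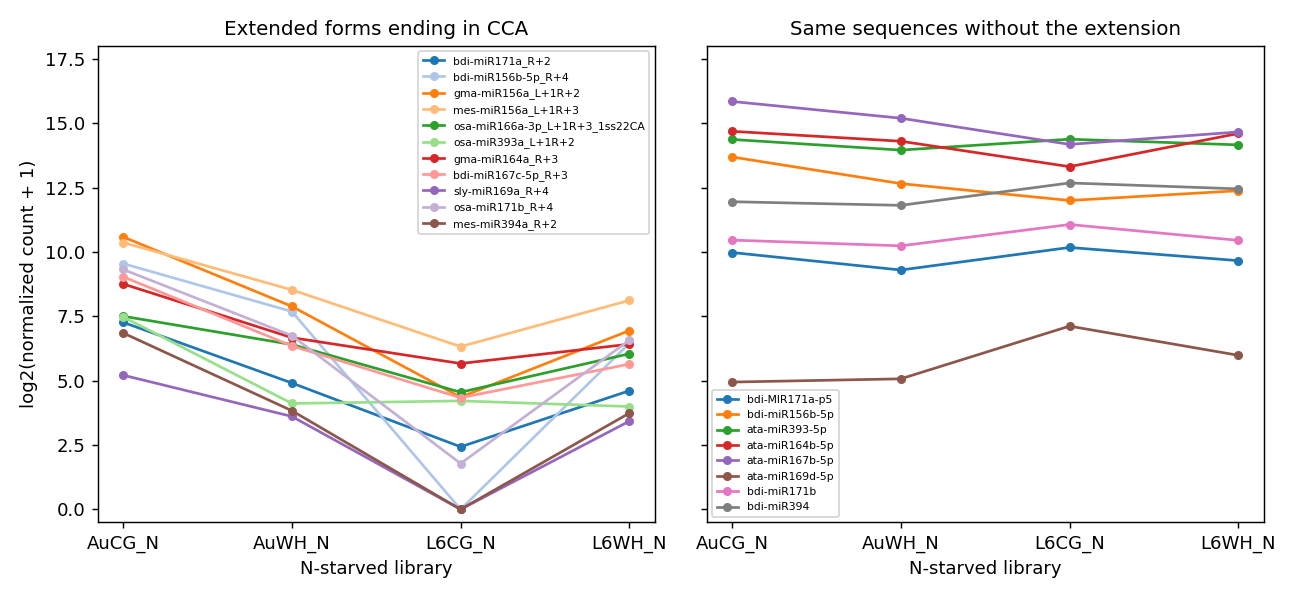
Each line is a miRNA form, with the 4 N-starved libraries on the horizontal axis and log2 of the normalized count plus 1 on the vertical axis, for the 11 extended forms that end in CCA (left) and the 8 distinct matching sequences without the extension (right). The extended forms sum to 5849 in AuCG_N and to 214 in L6CG_N.

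gma-miR156a_L+1R+2 was the most abundant of them, with 1533 in AuCG_N, 235 in AuWH_N, 19.5 in L6CG_N and 122 in L6WH_N. bdi-miR156b-5p, the shorter form, stood at 13185 in AuCG_N, 6441 in AuWH_N, 4086 in L6CG_N and 5315 in L6WH_N, a smaller gap in the same direction. osa-miR171b_R+4, of the family that targets GRAS factors of the meristem, stood at 637 in AuCG_N, 106 in AuWH_N, 2.44 in L6CG_N and 93.8 in L6WH_N. mes-miR394a_R+2, of the family that targets an F-box gene of leaf and meristem, stood at 114 in AuCG_N, 13.2 in AuWH_N, 0 in L6CG_N and 12.3 in L6WH_N. gma-miR164a_R+3, of the family that targets NAC factors, stood at 431 in AuCG_N, 101 in AuWH_N, 49.7 in L6CG_N and 84.4 in L6WH_N. In each of these extended forms AuCG_N was the highest library, and AuWH_N and L6WH_N differed by less than 1 on the log2 scale.

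Of the 36 sequences with 2 or more added 3′ bases, 25 were outside the 11 described above. Of these 25, 14 were called higher and 1 lower in AuCG_N against L6CG_N, against 18.7 and 21.3% over all sequences. osa-miR167a-5p_R+1, which has 1 added base, stood at 111 in AuCG_N, 32.6 in AuWH_N, 0 in L6CG_N and 16.9 in L6WH_N. Of the 183 sequences of 23 to 25 nt, a length that such extension reaches, 49 were called higher and 16 lower from control parents and 6 higher and 5 lower from stressed parents. These are 35.5 and 6.01% of the 183, against 40 and 10% of all sequences. limma called none of the 183 at an adjusted p under 0.05, with 10 at an unadjusted p under 0.05. The 373 sequences of 20 to 22 nt, 65.7% of the 568, hold all 11 of its calls.

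Entries of miR5368, named after soybean sequences (gma), differed in the opposite way. The 30 tested sequences of this family (21 distinct sets of values, 18 to 25 nt) were called lower in AuCG_N against L6CG_N in 21 cases and higher in 0. In AuWH_N against L6WH_N 6 were higher and 1 lower. Over all sequences 21.3% were lower and 18.7% higher in the first pair, and 5.99% lower and 4.05% higher in the second. Summed over all 43 sequences of the family, tested or not, counts stood at 734 in AuCG_N, 1534 in AuWH_N, 2008 in L6CG_N and 1420 in L6WH_N. By these sums AuWH_N and L6WH_N were close and AuCG_N and L6CG_N lay at the ends. With complete nutrients AuCG_C (649) and L6CG_C (1133) were likewise the lowest and the highest. limma called none of the 30, with 4 at an unadjusted p under 0.05.

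**Figure D5:**
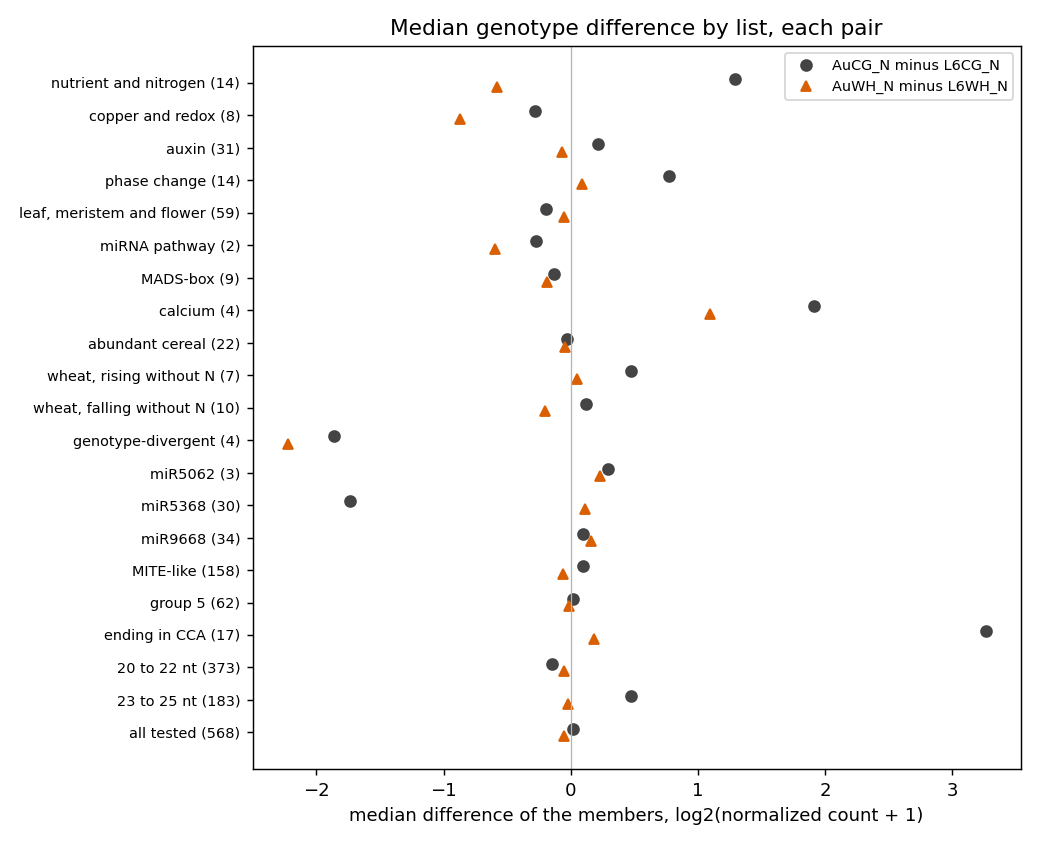
Each row is a list of families or sequences with the number tested, and the horizontal axis is the median difference of its members, DBA Aurora minus L6, as log2 of the normalized count plus 1. Circles are AuCG_N minus L6CG_N and triangles AuWH_N minus L6WH_N. Sequences ending in CCA (3.26) and miR5368 (−1.74) lie farthest from 0 among the circles of lists with over 4 members, while their triangles lie at 0.18 and 0.12.

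Known functional groups gave no limma call outside group 5, the MITE-like families and the list of families chosen for their genotype difference. The nutrient and nitrogen families had 14 sequences tested, of which 7 are miR169, which targets NF-YA factors. Of the others 5 are of miR827, which acts on SPX-domain phosphate transporters, and 2 are of miR399. The 14 include sly-miR169a_R+4, an extended form that ends in CCA, already counted above. Their median difference was 1.29 from control and −0.58 from stressed parents, and 12 of 14 were called in the first pair (8 higher, 4 lower) and 3 in the second (all lower). These are 85.7 and 21.4%, against 40 and 10% of all sequences. osa-miR827 stood at 2441 in AuCG_N, 1431 in AuWH_N, 5089 in L6CG_N and 1836 in L6WH_N, so the genotypes overlapped. ata-miR169d-5p stood at 29.8 in AuCG_N, 32.6 in AuWH_N, 138 in L6CG_N and 62.3 in L6WH_N, without overlap (log2 −1.54, limma adjusted p = 0.172). ata-miR169f-3p_R-1 stood at 339 in AuCG_N, 234 in AuWH_N, 367 in L6CG_N and 683 in L6WH_N, and bdi-miR169c-3p_L+1_2ss6GA13CT at 285, 130, 117 and 245 in the same order.

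The copper and redox families with tested sequences were miR397, miR398 and miR528, and no miR408 sequence was tested. All 8 sequences tested had a mean difference below 0, with a median of −0.57 against −0.03 over all sequences. By the rule of the study 2 of them were lower from control and 4 from stressed parents, none was higher, and limma called none. These are 25 and 50% of the 8, against 40 and 10% of all sequences. The most abundant, tae-MIR398-p5, stood at 345 in AuCG_N, 458 in AuWH_N, 664 in L6CG_N and 309 in L6WH_N, so the genotypes overlapped. tae-miR398_L-1R+1 stood at 95.6 in AuCG_N, 117 in AuWH_N, 98.5 in L6CG_N and 127 in L6WH_N.

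In the auxin families (miR160, miR167, miR390 and miR393) 13 of 31 sequences were called higher and 2 lower from control parents, and 3 higher from stressed parents. With both directions together 48.4 and 9.68% were called, near the 40 and 10% of all sequences. By direction the calls from control parents were mostly higher, against 18.7% higher and 21.3% lower over all sequences. They include extended forms of miR167 and miR393 that end in CCA, already counted above. ata-miR167b-5p stood at 58781 in AuCG_N, 37465 in AuWH_N, 18512 in L6CG_N and 25857 in L6WH_N, without overlap of the genotypes (log2 1.10, limma adjusted p = 0.287). tae-miR167c-5p, of the same family, stood at 27109, 19963, 27444 and 25189 in that order and overlapped. The phase-change families miR156 and miR172 had 6 of 14 called higher from control parents, none lower, and 1 higher from stressed parents, and no miR529 sequence was tested. These are 42.9 and 7.14%, all of them higher, against 18.7 and 4.05% higher over all sequences. They too include extended forms that end in CCA, of miR156. The list medians, 0.07 for auxin and 0.43 for phase change, turned to −0.15 for auxin when libraries were scaled to their filtered reads and stayed above 0 for phase change (0.20).

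The remaining lists are given by their counts of calls, to be read against 40% called from control and 10% from stressed parents over all sequences. In the leaf, meristem and flower families 11 of 59 were higher and 11 lower from control parents, and 1 higher and 3 lower from stressed parents (37.3 and 6.78%). The MADS-box regulator miR444 had 2 of 9 lower from control parents and none called otherwise (22.2 and 0%). In the cereal families miR7757 and miR9674, 3 of 22 were higher and 5 lower from control parents, and 1 lower from stressed parents (36.4 and 4.55%). In the MITE-like families 26 of 158 were higher and 36 lower from control parents, and 1 higher and 8 lower from stressed parents (39.2 and 5.70%). In group 5, 10 of 62 were higher and 17 lower from control parents, and 3 higher and 6 lower from stressed parents (43.5 and 14.5%). Of miR5062 none of 3 was called, and of miR9668 3 of 34 were higher and 2 lower from control and 1 higher from stressed parents (14.7 and 2.94%). The wheat families known in these data to rise without N (miR9672, miR9676 and miR9678) had 1 of 7 higher and 1 lower from control and none called from stressed parents. Those known to fall (miR9652, miR9653, miR9654, miR9773 and miR9774) had 3 of 10 in each direction from control and 1 lower from stressed parents. No member of the phased siRNA trigger families passed the filter on mean count.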

How the data were processed

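Small RNA was sequenced from shoots in 8 libraries. The authors filtered the reads and ran ACGT101-miR, which matched them to miRBase and to the Svevo.v1 genome. RNAfold gave the hairpins of group 5. The deposited signal values are normalized read counts per entry, made by the authors' program. How each factor was chosen is not stated. Low values were whole multiples of 1 step in 97.9 to 98.7% of cases (within 0.02), and this step was taken as 1 read.

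Entries (1532) were reduced to 1473 sequences, filtered at a mean of 10 over the 4 N-starved libraries, and log2(count + 1) went into limma 3.58.1 (R 4.3.3) (genotype by progeny treatment means plus parental treatment, 8 libraries, Benjamini-Hochberg adjustment over 568 sequences or 104 family totals, threshold 0.05). Library pairs were compared with scipy 1.17.1 by Fisher's exact test at the thresholds of the study, which also names a chi-square test, with a 0 replaced by 0.01 in the ratio. limma was tested on simulated data. Count models were not run, since values are not whole reads throughout. The members, lists and tests were chosen with earlier results of these data known. Named are the limma calls, the largest calls made in both pairs at 100 or more, the 5 of lowest p against complete nutrients, the 5 whose pairs differed most, abundant members of lists, and families that passed or are most abundant. Exceptions, named for their values, are ata-miR169d-5p and the extended forms, whose rule was also chosen after values were seen. Positions are those of the deposited table; chromosome names were not used here. Pairing comes from parental treatment, not from replicate numbers.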

Additional observations from a re-analysis of the deposited data

Results flagged for a closer look

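Of the 568 sequences, 6 were called in opposite directions in the 2 library pairs, which is why they are listed. Values are log2 of the normalized count plus 1, DBA Aurora minus L6, first from control and then from stressed parents. tae-MIR530-p5 gave 1.29 and −1.60, from 389 in AuCG_N, 131 in AuWH_N, 158 in L6CG_N and 399.4 in L6WH_N. gma-MIR5368-p3_1ss4GA_1 and gma-MIR5368-p3_1ss4GA_2, which share all values, gave −1.06 and 1.79. gma-MIR5368-p3_1ss3GA gave −2.12 and 0.99. gma-MIR5368-p5_2ss1TC21TC_1 and gma-MIR5368-p5_2ss1TC21TC_2, which also share all values, gave −1.74 and 1.01. Each pair is 1 library against 1 library, so the difference between pairs was not tested.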

How the results depend on the processing

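The 11 sequences called by limma became 4 after quantile normalization, 3 without the filter on mean count, 3 at a mean of 50 or more, 5 with a parental term within each progeny treatment, 4 in the 4 N-starved libraries alone with pairing and 3 without it, and 3 to 12 with 1 library left out. In the other alternatives they were 8 to 15. The 2 families became 0 after quantile normalization, 1 at a mean of 50 or more, 4 in the 4 libraries without pairing and 1 to 5 with 1 library left out. No family passed against complete nutrients from totals, but 2 did when the mean of log2 values over members was fitted, a setting chosen after seeing the data: miR9655 (log2 4.51, limma adjusted p = 0.00814) and miR9664 (2.53, 0.0401). Calls in the pair from control parents were 86 at 100 or more and 607 without the filter, those in the pair from stressed parents 17 and 233, and those made in both pairs 10 (here 100 or more is required in a library of each pair) and 91, and 13 where both libraries were above 0. The cause of these shifts was not tested, except that fewer or more sequences or libraries entered by construction. Of 501 values of single sequences and families under alternatives, 416 kept their direction and side of the threshold, 70 lost and 15 gained a call, and 0 turned. No paired analysis by replicate number was possible because each condition has 1 library. With 3 residual degrees of freedom and a median standard error of 0.49, differences well over log2 1 could fail to pass. The smallest called difference was log2 −4.38 (tae-MIR1137b-p3_1ss12TC), while ata-MIR396d-p3 at −2.25 did not pass (limma adjusted p = 0.0702). A sequence without a call can therefore still differ between genotypes, and values under 5 reads are not listed.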
